A study of Mus musculus with 6 samples.

Results

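Cyp7a1 encodes cholesterol 7α-hydroxylase, the rate-limiting enzyme of the classic route from cholesterol to bile acids. It is described here in mouse liver exposed to vehicle, FGF15 or FGF19. Every probe set of the array that the platform annotation pairs with Cyp7a1 and no other gene was taken, which gave 2 probe sets, 1438743_at and 1422100_at. The array holds 12393 genes that can be told from their own probe sets. Cyp7a1 is 1 of them, and both of its probe sets passed the filter on low signals.

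The animals were wild-type C57Bl/6 males from Jackson Laboratories, with no transgene or deletion in any group. A first group received vehicle, another purified FGF15 and the last recombinant FGF19, each by injection into the jugular vein. All groups went without food for the 6 h between injection and the freezing of the liver, so fasting is common to the controls and the treated animals. The 6 arrays, 2 per group, were Affymetrix Mouse Genome 430A 2.0 arrays hybridised with biotin-labelled total RNA of whole liver. The sources used here do not give the age of the animals, the protein doses or what the vehicle held. Where no dose is given, a difference between the proteins and a difference between their doses cannot be told apart. Nothing in the labels says that the pair of arrays in a group stems from different animals. The p-values then reflect the spread between these 6 hybridisations alone, and that spread may be technical.

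FGF15 in mice and FGF19 in humans are orthologous hormones made by the ileum when returning bile acids activate the nuclear receptor FXR (Nr1h4). In hepatocytes they bind the receptor tyrosine kinase FGFR4 together with the co-receptor β-Klotho (Klb), and Cyp7a1 is the textbook target of this gut-to-liver loop. The small heterodimer partner SHP (Nr0b2), itself induced by FXR, is the classic repressor of Cyp7a1 and acts through LRH-1 (Nr5a2) and HNF4α (Hnf4a) on its promoter. The comparisons ask how far Cyp7a1 transcript fell with each hormone, and whether it differed between the hormones.

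The authors' signals share one scale. Vehicle arrays had median signals of 59.4 and 61.4, above the 50.8 to 55.2 of the 4 treated arrays. The share of probe sets under a signal of 32 was 36.4% and 38.0% with vehicle and 39.4% to 41.5% on the treated arrays. Changes of Cyp7a1 are therefore also given with each array centred on its median. The array of FGF19 replicate 1 stood apart in 18S ribosomal RNA control probe sets, with a mean signal of 29.3 against 9.99 to 12.6 on the others. Its ratio of 3′ to 5′ β-actin probe sets was also the highest, 1.63 against 1.30 to 1.39. Results on Cyp7a1 are therefore also given without that array.

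Cyp7a1 fell to a few percent of its vehicle level with either hormone, and lay lower with FGF19 than with FGF15. On 1438743_at, the brighter probe set, the deposited signal was 2677 and 2572 on the vehicle arrays. With FGF15 it was 91.5 and 89.4. With FGF19 it was 38.2 and 32.1. The vehicle arrays were thus far above all others, the FGF15 arrays were in between, and no groups overlapped. The lowest vehicle signal was 28.1-fold the highest FGF15 signal and 67.3-fold the highest FGF19 signal. The lowest FGF15 signal was 2.34-fold the highest FGF19 signal.

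Group means of this probe set were 2625 ± 74.4 (SD, n = 2 arrays) with vehicle, 90.5 ± 1.53 with FGF15 and 35.1 ± 4.33 with FGF19. Against the vehicle mean, 3.45% ± 0.0585 (SD, n = 2) of the signal remained with FGF15 and 1.34% ± 0.165 with FGF19. As ratios of mean signals, vehicle exceeded FGF15 by 29.0-fold and FGF19 by 74.7-fold, and FGF15 exceeded FGF19 by 2.57-fold. In bulk liver, fewer cells that express a gene and less of its RNA per cell cannot be told apart.

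The probe set 1422100_at gave the same order of groups. Its signal was 1731 and 1734 with vehicle, 70.7 and 77.8 with FGF15, and 34.1 and 38.7 with FGF19. Again the 3 groups were apart, with the narrowest gap, 1.83-fold, between the lower FGF15 array and the higher FGF19 array. Of the vehicle mean, 4.29% ± 0.292 (SD, n = 2) remained with FGF15 and 2.10% ± 0.188 with FGF19. The fall was thus large on both probe sets, and the remainder was a larger percentage on this one.

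**Figure D1:**
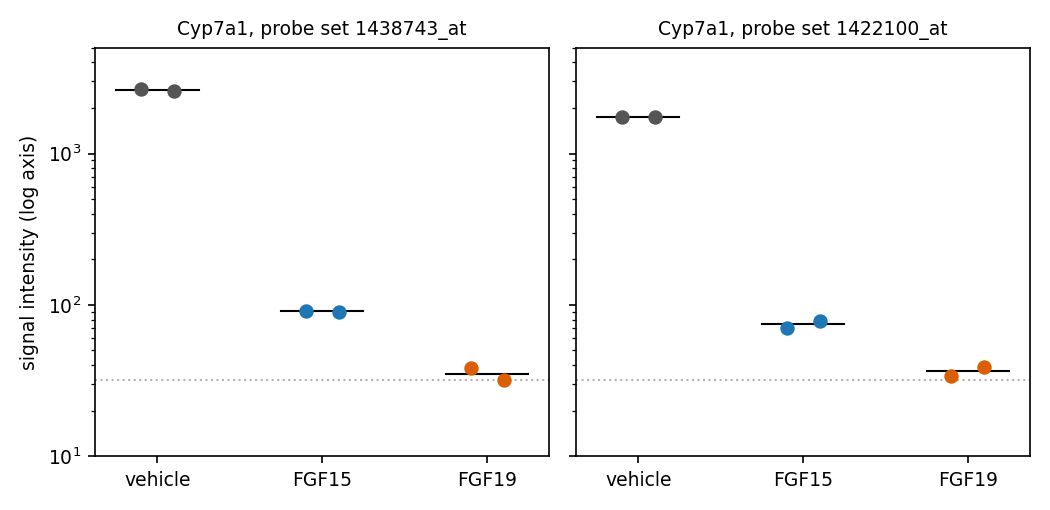
Deposited signal of both Cyp7a1 probe sets on each of the 6 arrays, on a log axis, with 1 point per array, the groups along the horizontal axis and a bar at each group mean. The dotted line marks a signal of 32, the offset added before log2; the FGF19 arrays lie at or just above it (32.1 to 38.7), the FGF15 arrays between 70.7 and 91.5, and the vehicle arrays between 1731 and 2677.

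The probe sets fell unequally. The signal of 1438743_at divided by that of 1422100_at was 1.55 and 1.48 on the vehicle arrays, 1.30 and 1.15 with FGF15, and 1.12 and 0.829 with FGF19. This ratio carries probe affinity and says nothing of the amount of either target, but its change between groups shows that the estimated fold depends on the probe set. Without detection calls, how much of the signal left with FGF19 came from Cyp7a1 transcript was not tested.

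In the statistical comparison, log2(signal + 32) was fitted with limma across 9685 genes, each represented by its brightest probe set, which for Cyp7a1 is 1438743_at. A gene is called at a Benjamini-Hochberg adjusted p under 0.05. The offset of 32 damps noise at low signals and shrinks the fold of a transcript that nearly vanishes, so these folds are smaller than the ratios of mean signals.

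With FGF15, Cyp7a1 fell by 4.44 ± 0.09 on the log2 scale (SE, n = 2 arrays per group; limma adjusted p = 3.19e-09). The 95% interval was -4.64 to -4.24, or a fall of 18.9-fold to 24.9-fold around 21.7-fold. Of the genes tested, 12.6% were called in this comparison, 6.67% lower and 5.91% higher. That split of 646 lower and 572 higher became 356 lower and 1007 higher with each array centred on its median, where Cyp7a1 changed by -4.32. No gene had a smaller p. Moxd1, a monooxygenase-like gene named after its values were seen, was the only gene with a lower change (-5.47). With no offset, 2 genes lay lower, Moxd1 among them.

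With FGF19, Cyp7a1 fell by 5.31 ± 0.09 (SE, n = 2 per group; limma adjusted p = 5.54e-10). The 95% interval was -5.50 to -5.11, or a fall of 34.6-fold to 45.4-fold around 39.6-fold. In this comparison 13.6% of genes were called, 7.27% lower and 6.29% higher. These 704 lower and 609 higher genes became 329 lower and 1214 higher with centring, where Cyp7a1 changed by -5.16. No gene had a smaller p or a lower change, but Moxd1 was level with Cyp7a1 to the second decimal (-5.31). Moxd1 came out lower than Cyp7a1 without FGF19 replicate 1 or without vehicle replicate 2, and also with an offset of 16 or none, quantile normalization or the mean of a gene's probe sets.

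Between the hormones, Cyp7a1 was lower with FGF19 by a log2 difference of -0.87 ± 0.09 (SE, n = 2 per group; limma adjusted p = 0.000372; 95% interval -1.06 to -0.67). That is 1.83-fold on the offset scale, with an interval of 1.59-fold to 2.09-fold. The difference exceeded the spread between arrays, and both FGF19 arrays lay under both FGF15 arrays on both probe sets. Of the genes tested, 4.3% were called between the hormones, 1.89% lower and 2.41% higher with FGF19. A lower difference than that of Cyp7a1 was found for 14 genes and a smaller p for 51, so between the hormones Cyp7a1 did not head the list. The count of 14 was 47 without FGF15 replicate 2, 44 without FGF19 replicate 2 and 81 with no offset, and at most 27 under the other alternatives. Both comparisons with vehicle use the same vehicle arrays, and their values are not independent of each other.

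Fitted on its own among 16969 probe sets, 1422100_at fell by 4.05 ± 0.09 with FGF15 (SE, n = 2 per group; limma adjusted p = 1.72e-08). With FGF19 it fell by 4.69 ± 0.09 (limma adjusted p = 4.22e-09). Called lower were 5.81% and 6.34% of all probe sets. Its difference between the hormones was -0.64 ± 0.09 (95% interval -0.85 to -0.43; limma adjusted p = 0.00472), where 1.34% of probe sets were called lower. This last call was lost when the vehicle arrays were left out of the fit (adjusted p = 0.0638), with the same difference of -0.64.

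The size of the fall depended on the offset more than on any array. Without an offset the log2 changes of 1438743_at were -4.86 with FGF15, -6.23 with FGF19 and -1.37 between the hormones. With an offset of 64 they were -4.12, -4.76 and -0.64. Leaving out 1 array at a time, FGF19 replicate 1 among them, moved them only within -4.47 to -4.41, -5.37 to -5.24 and -0.93 to -0.80. Cyp7a1 was called in all 3 comparisons under each of the 21 alternatives run. The highest adjusted p over them was 3.1e-05 for FGF15, 1.03e-05 for FGF19 and 0.014 between the hormones.

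**Figure D2:**
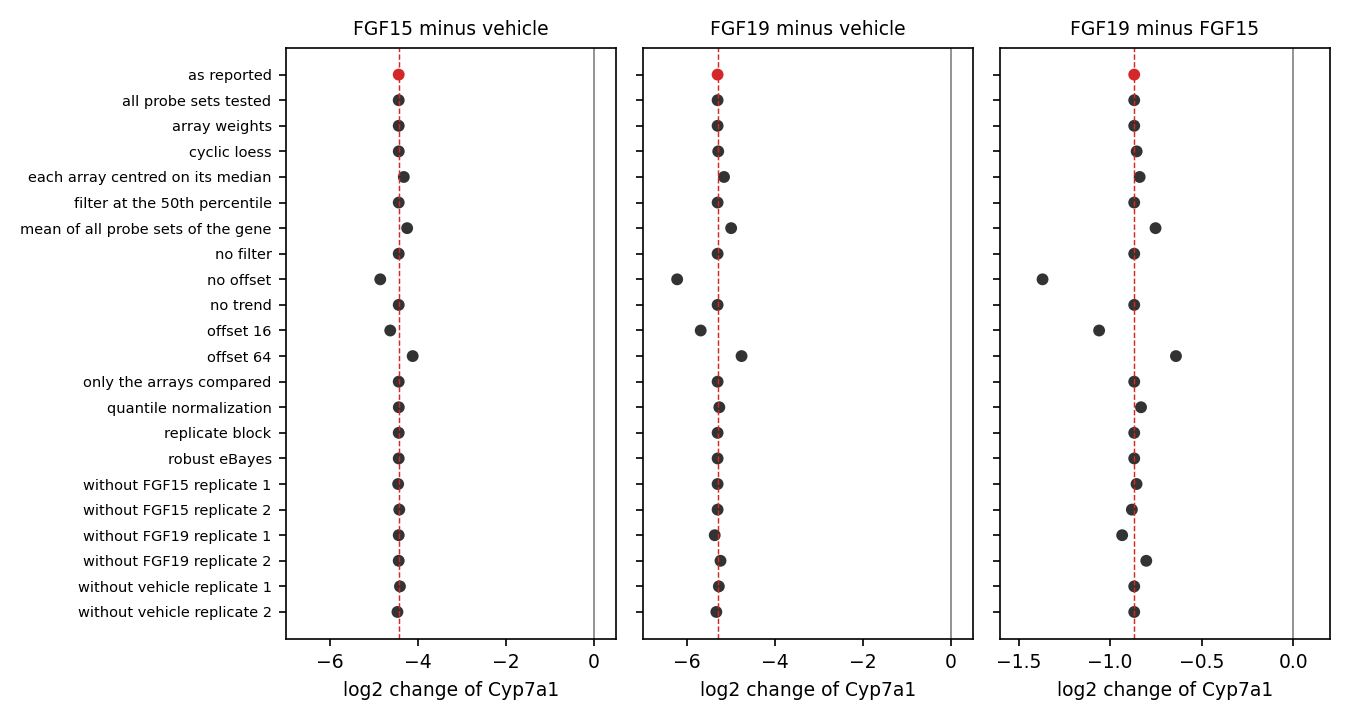
Log2 change of Cyp7a1 in each comparison (horizontal axis) under the fit described in the text and each of the 21 alternatives (vertical axis), with 1 point per fit and a dashed line at the value given in the text. All points lie left of 0; they span -4.86 to -4.12 for FGF15 minus vehicle, -6.23 to -4.76 for FGF19 minus vehicle and -1.37 to -0.64 for FGF19 minus FGF15, and the ends of each span are the fits with no offset and with an offset of 64.

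Other enzymes of bile acid synthesis moved less than Cyp7a1. Cyp7b1, the oxysterol 7α-hydroxylase of the alternative route, had signals of 6623 and 6839 with vehicle, 2941 and 3055 with FGF15, and 2832 and 2960 with FGF19. It fell by 1.16 ± 0.06 with FGF15 (SE, n = 2 per group; limma adjusted p = 4.07e-06) and by 1.21 ± 0.06 with FGF19 (limma adjusted p = 2.13e-06). Vehicle arrays were apart from all others, while FGF15 and FGF19 arrays overlapped. Its other probe set changed by -1.49 and -1.40.

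Cyp8b1, the sterol 12α-hydroxylase that sets the share of cholic acid, had signals of 1171 and 1317 with vehicle, 669 and 656 with FGF15, and 618 and 506 with FGF19. It fell by 0.88 ± 0.10 with FGF15 (limma adjusted p = 2.87e-04) and by 1.11 ± 0.10 with FGF19 (limma adjusted p = 5.49e-05). Its arrays were ordered like those of Cyp7a1, but its difference between the hormones, -0.23, was not called (limma adjusted p = 0.26; 95% interval -0.45 to -0.02).

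Cyp2c70, which makes muricholic acids in mice, fell by 0.52 ± 0.06 with FGF15 and by 0.87 ± 0.06 with FGF19, and was lower with FGF19 than with FGF15 by a called difference of -0.35 (limma adjusted p = 0.0122). That last call was lost without FGF15 replicate 1 (adjusted p = 0.11), without FGF15 replicate 2 (adjusted p = 0.0728) and with no intensity trend (adjusted p = 0.137). Cyp27a1, the sterol 27-hydroxylase that opens the alternative route, changed by -0.10 ± 0.07 with each hormone and was not called (limma adjusted p = 0.359 and 0.336). The 95% interval of its change with FGF15 was -0.25 to 0.04, which leaves out any fall of the size seen for Cyp7b1 or Cyp8b1. The initial enzymes of both routes thus differed in these arrays, with Cyp7a1 at a few percent of its vehicle level and Cyp27a1 within a small interval around its own.

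Of the 19 bile acid synthesis enzymes listed, all passed the filter. With FGF15, 5 fell (Cyp7a1, Cyp7b1, Cyp8b1, Cyp2c70 and Hsd3b7, the 3β-hydroxy-C27-steroid oxidoreductase) and 1 rose. The riser was Acox2, the branched-chain oxidase of side-chain shortening, named after its values were seen (0.31 ± 0.08; limma adjusted p = 0.0406). With FGF19 those 5 enzymes fell in the limma fit and none of the 19 rose, while 10 were lower and 2 higher at an unadjusted p under 0.05, and 9 fell when FGF19 replicate 2 was left out. Called were thus 31.6% of the list with FGF15 and 26.3% with FGF19, against 12.6% and 13.6% of all genes. These shares count Cyp7a1 itself, which was chosen with its fall already known. The call of Acox2 was lost without vehicle replicate 1 or either FGF15 array. That of Hsd3b7 with FGF15 was lost without any one of the vehicle or FGF15 arrays (adjusted p of 0.0842 to 0.244), with centring (-0.12; adjusted p = 0.353), with no filter and with no trend. With FGF19 it was lost without either vehicle array, with centring (adjusted p = 0.308) and with no trend. The median log2 change of the list was -0.11 with FGF15 and -0.18 with FGF19, against -0.05 and -0.07 over all genes tested. With each array centred on its median, the list's medians were 0.01 and -0.03, against 0.07 and 0.07 over all genes. Cyp7a1 was far from the next enzyme with each hormone.

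**Figure D3:**
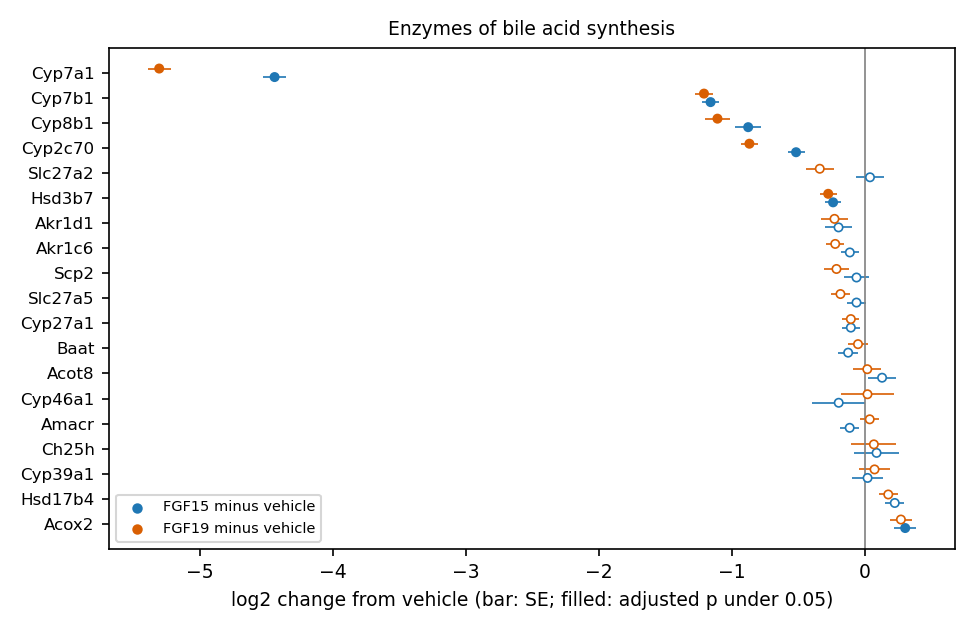
Log2 change from vehicle of the 19 listed enzymes of bile acid synthesis (horizontal axis; bars are limma standard errors, filled points have an adjusted p under 0.05), FGF15 in blue and FGF19 in orange. Cyp7a1 lies at -4.44 and -5.31, and Cyp7b1, the next enzyme, at -1.16 and -1.21.

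Fgfr4, the receptor of both hormones, had a mean signal of 127 ± 9.13 (SD, n = 2) with vehicle, 99.8 ± 6.25 with FGF15 and 84.7 ± 10.7 with FGF19. Its change was -0.27 ± 0.12 with FGF15, which was not called (limma adjusted p = 0.195), and it fell by 0.45 ± 0.12 with FGF19 (limma adjusted p = 0.0389). The 4 other Fgfr4 probe sets changed by -0.40 to -0.04 with FGF19. Klb, the co-receptor, fell by 0.41 ± 0.11 with FGF15 (limma adjusted p = 0.0406) and by 0.45 ± 0.11 with FGF19 (limma adjusted p = 0.0275).

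Of the 9 measured genes listed for the receptors and kinase steps from FGFR4 to Cyp7a1, only Klb was called with FGF15 (11.1% of the list against 12.6% of all genes), and 33.3% against 13.6% were called with FGF19. With FGF19, Fgfr4 and Klb fell and Ptpn11, the phosphatase SHP2, rose by 0.38 (limma adjusted p = 0.0294), while its 2 other probe sets changed by 0.19 and -0.16. Ptpn11 was called with FGF15 too without FGF15 replicate 1 (0.36; adjusted p = 0.047). Sos1, an exchange factor for RAS, changed by -0.33 and -0.34 without a call. These calls were near the threshold, and with each array centred on its median Klb and Fgfr4 were called with neither hormone. By array, the Klb call with FGF15 was lost without any one of the vehicle or FGF15 arrays. With FGF19, no member fell without either vehicle array or without FGF19 replicate 2, 1 fell without FGF19 replicate 1, and Ptpn11 was not called without any one of the vehicle or FGF19 arrays. The mRNA levels of the listed kinases say nothing of their activity, which was not measured.

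Nr0b2, the repressor SHP, moved opposite to Cyp7a1. Its signal was 120 and 116 with vehicle, 269 and 274 with FGF15, and 284 and 263 with FGF19. The vehicle arrays were the lowest and the treated arrays overlapped. It rose by 1.02 ± 0.09 with FGF15 (SE, n = 2 per group; limma adjusted p = 7.37e-05) and by 1.03 ± 0.09 with FGF19 (limma adjusted p = 5.8e-05). Between the hormones its difference was 0.01 ± 0.09 (95% interval -0.19 to 0.21; limma adjusted p = 0.975), while that of Cyp7a1 was -0.87.

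Nr1h4, the bile acid receptor FXR, had signals of 992 and 980 with vehicle, 802 and 799 with FGF15, and 564 and 491 with FGF19. Its arrays were ordered like those of Cyp7a1, with no overlap of groups. It fell by 0.29 ± 0.08 with FGF15 (limma adjusted p = 0.0347), a call lost without any one of the vehicle or FGF15 arrays (adjusted p of 0.101 to 0.172), and with each array centred on its median (adjusted p = 0.235). With FGF19 it fell by 0.87 ± 0.08 (limma adjusted p = 6.15e-05), and it was lower with FGF19 than with FGF15 by a difference of -0.58 (limma adjusted p = 0.00196; 0.0541 with no trend).

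The partners of SHP on the Cyp7a1 promoter were not called in the fit of all 6 arrays. Nr5a2, LRH-1, changed by -0.01 ± 0.11 with FGF15 (limma adjusted p = 0.954; 95% interval -0.25 to 0.22) and by -0.29 ± 0.11 with FGF19 (limma adjusted p = 0.098). Hnf4a changed by -0.20 ± 0.10 with FGF15 (limma adjusted p = 0.22) and by 0.03 ± 0.10 with FGF19 (limma adjusted p = 0.891; 95% interval -0.19 to 0.24). The sign of Nr5a2 with FGF15 and that of Hnf4a with FGF19 turned under some alternatives, so neither has a direction there. Single arrays mattered for the other comparisons: Nr5a2 was called lower with FGF19 without FGF19 replicate 1, the array that stood apart (-0.44; adjusted p = 0.0352), and Hnf4a was called lower with FGF15 without FGF15 replicate 2 (-0.36; adjusted p = 0.038).

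Among further regulators, Ppargc1a, the coactivator PGC-1α that can raise Cyp7a1 transcription, fell by 1.90 ± 0.12 with FGF15 (limma adjusted p = 8.19e-06). With FGF19 it fell by 0.61 ± 0.12 (limma adjusted p = 0.00863), a call lost without either vehicle array or FGF19 replicate 1 (adjusted p of 0.0528 to 0.079). Ppargc1a was higher with FGF19 than with FGF15 by 1.29, the opposite order to Cyp7a1. Zfp36l1, an RNA-binding protein that promotes decay of Cyp7a1 mRNA, rose by 0.57 ± 0.06 with FGF15 (limma adjusted p = 2.93e-04) and by 0.81 ± 0.06 with FGF19 (limma adjusted p = 2.57e-05).

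Dbp, a circadian activator of Cyp7a1, changed by -0.10 with FGF15, without a call, and fell by 1.54 ± 0.08 with FGF19 (limma adjusted p = 1.76e-06). Nfil3, a repressor that binds the same elements as DBP, changed by 0.26 with FGF15, without a call, and rose by 0.87 with FGF19 (limma adjusted p = 3.17e-04). Both differences between the hormones were called, -1.44 for Dbp and 0.61 for Nfil3. The call of Nfil3 between the hormones was lost without FGF19 replicate 1 (adjusted p = 0.0637) and with no trend (adjusted p = 0.0793). With FGF15, Nfil3 was called higher without vehicle replicate 2 (0.41; adjusted p = 0.0407) and with centring (0.38; adjusted p = 0.0333).

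Of the 28 measured transcriptional and RNA regulators listed for Cyp7a1, 4 rose and 5 fell with FGF15, and 5 rose and 8 fell with FGF19. Between the hormones 4 were higher and 6 lower with FGF19. Called were thus 32.1%, 46.4% and 35.7% of the list, against 12.6%, 13.6% and 4.3% of all genes. The median log2 changes were -0.02 with FGF15, -0.19 with FGF19 and -0.13 between the hormones, against -0.05, -0.07 and -0.02 over all genes. The count that fell with FGF15 was 2 without either vehicle array and 2 with each array centred on its median. With FGF19 it was 4 without either vehicle array and 5 without FGF19 replicate 2, and the count higher with FGF19 than with FGF15 was 2 without FGF19 replicate 1. The list mixes activators and repressors, and its counts have no common direction.

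Of 13 measured transporters of bile acids and sterols, 1 rose and 3 fell with FGF15, and 4 rose and 3 fell with FGF19 (2 rose without vehicle replicate 2 or FGF19 replicate 1). Called were 30.8% and 53.8% of the list, against 12.6% and 13.6% of all genes. Abcc3, a basolateral exporter of bile acid conjugates, rose by 0.79 and 0.84. Slc22a7, the organic anion transporter OAT2, fell by 1.57 with FGF15 and by 2.04 with FGF19. Slco1a4, a sinusoidal uptake carrier, fell by 0.71 and 0.76. Abca1, the cholesterol exporter, changed by 0.01 with FGF15, without a call and with a sign that turned under 4 alternatives, and rose by 0.50 with FGF19 (limma adjusted p = 8.51e-04).

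Of 7 measured genes of cholesterol supply and storage, which provide the substrate of CYP7A1, 3 fell with FGF15 and 5 with FGF19 in the limma fit, and none rose (0 and 1 were higher at an unadjusted p under 0.05). Of all genes, 6.67% and 7.27% fell, so 3 and 5 of 7 are larger shares. Sqle, squalene epoxidase, fell by 0.51 and 0.89. Hmgcs1, HMG-CoA synthase, fell by 0.35 and 0.67. Its other probe sets changed by -0.20 to -0.09 with FGF15 and by -0.59 to -0.36 with FGF19. The Hmgcs1 call with FGF15 was lost with probe sets averaged (-0.18, limma adjusted p = 0.0742), with centring and with no trend. Scarb1, the HDL receptor, fell by 0.56 with FGF15 and by 0.30 with FGF19, where another of its probe sets changed by 0.03, and Stard4, a sterol carrier, fell by 0.44 with FGF19. Leaving out vehicle replicate 1 gave counts of 1 with FGF15 and 2 with FGF19, and leaving out vehicle replicate 2 or FGF19 replicate 2 gave 3 with FGF19. With each array centred on its median, 2 fell with FGF19. Calls lost without vehicle replicate 1 include those of Hmgcs1 (adjusted p = 0.0811) and Sqle (adjusted p = 0.0605) with FGF15 and of Stard4 with FGF19 (adjusted p = 0.0784). That of Scarb1 with FGF19 was lost without either vehicle array or FGF19 replicate 2 (adjusted p of 0.106 to 0.14) and with centring.

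Within the cytochrome P450 genes, Cyp7a1 fell most with each hormone. Of 52 measured P450 genes, with Cyp7a1 itself counted, 12 rose and 7 fell with FGF15, so 36.5% were called against 12.6% of all genes. With FGF19, 8 rose and 13 fell, so 40.4% were called against 13.6%. The next largest fall was that of Cyp4a31, an ω-hydroxylase of fatty acids, by 1.38 with FGF15 and by 1.56 with FGF19. Others rose by over 1 log2 unit: Cyp26a1, which degrades retinoic acid, by 2.18 with FGF15, and Cyp4a14, also an ω-hydroxylase, by 1.97 with FGF15 and 1.92 with FGF19. Between the hormones 1 was higher and 9 were lower with FGF19, so 19.2% were called against 4.3% of all genes.

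Cyp2b9, a drug-metabolising P450, rose by 1.72 with FGF15 and changed by 0.18 with FGF19 without a call. Cyp2b10, measured with a probe set that can hybridise with related transcripts, rose by 1.32 and 1.00, and Cyp2c38 rose by 1.31 and 1.08. Counts of P450 genes depended on single arrays. With FGF15, 12 fell without either FGF19 array. With FGF19, 5 rose and 6 fell without either vehicle array, 8 fell without FGF19 replicate 1, and 6 fell with each array centred on its median.

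**Figure D4:**
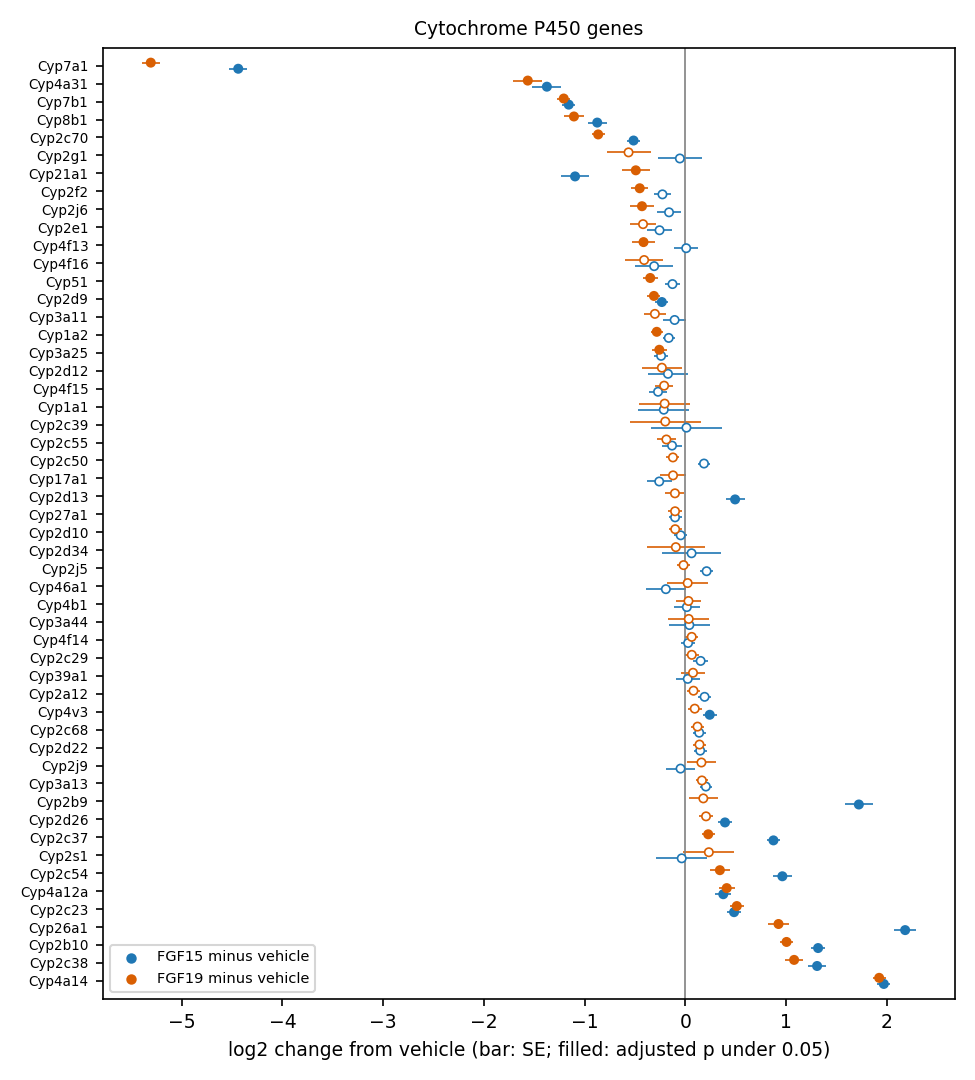
Log2 change from vehicle of the 52 measured cytochrome P450 genes (horizontal axis; bars are limma standard errors, filled points have an adjusted p under 0.05), FGF15 in blue and FGF19 in orange, ordered by the change with FGF19. Cyp7a1 stands alone at -4.44 and -5.31; every other P450 gene lies between -1.56 and 2.18.

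The genes whose values over the 6 arrays were most like those of Cyp7a1 were found by Pearson correlation of log2(signal + 32). This is a description with n = 6 arrays that share their groups and their vehicle level, and with 3 group levels many genes correlate highly. Among 490 genes spanning at least 1 log2 unit, 66 had r over 0.9 and 43 had r under -0.9. The 10 most alike were Orm2 (r = 0.999), Aadat and Slc22a7 (0.998 each), Ugt2b38 (0.997), Gm6958, Clec4f and C86187 (0.996 each), and Hsd3b5, Cyp4a31 and C1qc (0.995 each). All of them changed far less than Cyp7a1. With 32 added before log2, however, C86187, Cyp4a31, Gm6958 and Ugt2b38 were too dim to reach its -4.44 with FGF15. Their mean vehicle signals were 58.1, 136, 312 and 380. With FGF15 and FGF19, Orm2, an acute-phase protein, fell by 1.70 and 1.99. Hsd3b5, a male-specific steroid enzyme of mouse liver, fell by 1.41 with FGF15 and fell by 1.86 with FGF19.

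The 5 genes most opposite to Cyp7a1 were Inmt, Gsta2 (r = -0.999), Steap4 and Fitm1 (r = -0.998 each) and Rdh16 (r = -0.997). Inmt, an amine methyltransferase, had the lowest r of all and rose by 1.22 with FGF15 and 1.47 with FGF19. Gsta2, a glutathione transferase, rose by 1.52 and 1.84. The remaining Cyp7a1 probe set, 1422100_at, was not part of this ranking of genes.

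**Figure D5:**
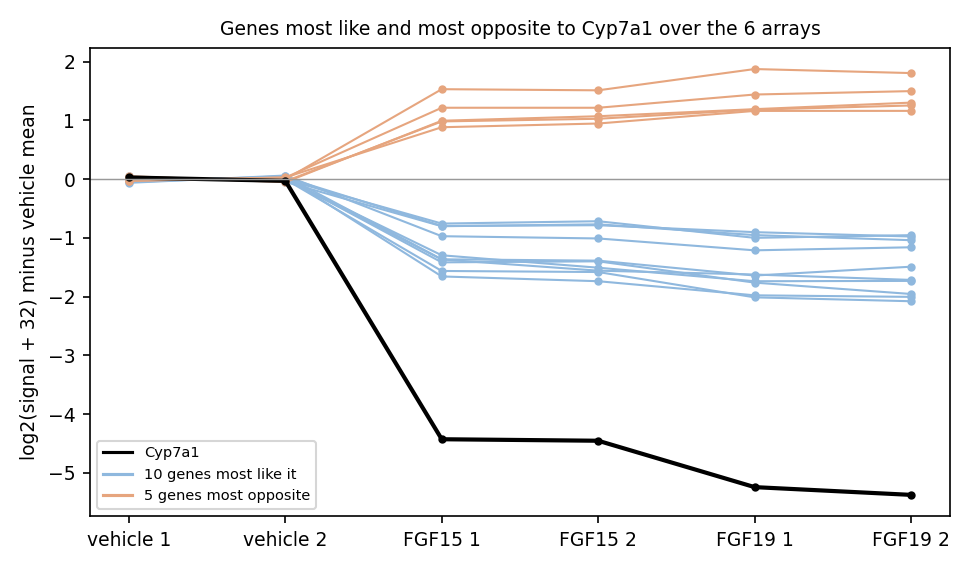
Log2(signal + 32) minus the gene's own vehicle mean (vertical axis) on each of the 6 arrays (horizontal axis), for Cyp7a1 in black, the 10 genes most like it in blue and the 5 most opposite in orange; lines only join the values of 1 gene. The like genes lie below 0 and the opposite genes above 0 on all FGF arrays. Cyp7a1 lies far below them all, at a mean of -4.44 with FGF15 and -5.31 with FGF19. The offset of 32 limits how far the dim like genes can fall.

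The neighbours of Cyp7a1 on its chromosome were not called by limma in either comparison with vehicle, where Bpnt2 and Nsmaf had an unadjusted p under 0.05 with FGF19 (0.0442 and 0.0379). In RefSeq's mouse gene order (assembly GRCm38.p6), the 3 protein-coding genes on each side are Bpnt2, Fam110b and Ubxn2b, and Sdcbp, Nsmaf and Tox. Fam110b was not paired with a probe set of its own. The changes with FGF15 and FGF19 were 0.12 and 0.19 for Bpnt2, 0.14 and 0.04 for Ubxn2b, -0.12 and 0.12 for Sdcbp, -0.30 and -0.34 for Nsmaf, and 0.17 and 0.24 for Tox. All lie far from the -4.44 and -5.31 of Cyp7a1. Mean vehicle signals, however, were 297 for Bpnt2, 28.1 for Ubxn2b, 740 for Sdcbp, 90.8 for Nsmaf and 48.1 for Tox. With 32 added before log2, all but Sdcbp were too dim to reach -4.44, and none could reach -5.31. That distance from Cyp7a1 therefore says nothing about the dim neighbours. Under alternatives, Sdcbp was called with FGF15 when its probe sets were averaged (-0.30; limma adjusted p = 0.016), and Bpnt2 with FGF19 when arrays were centred on their median (0.33; limma adjusted p = 0.0254).

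The markers of hepatocytes, the cells that express Cyp7a1, were bright on every array, as the liver label would have it. The summed signal of 8 hepatocyte markers was 83096 to 83885 with vehicle, 70703 to 76864 with FGF15 and 60517 to 77505 with FGF19. Beside the counts of markers below, 6.67% of all genes fell with FGF15 and 7.27% with FGF19. Of these 8, 1 fell with FGF15 in the limma fit (4 without either FGF19 array). With FGF19 none was called, while 6 were lower at an unadjusted p under 0.05 and 6 fell without FGF19 replicate 2.

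Markers of the liver zones were summed in the same way, since Cyp7a1 is expressed mainly around the central vein. Pericentral markers summed to 39035 to 39915 with vehicle, 38233 to 41768 with FGF15 and 33256 to 39359 with FGF19. Of 13, 2 rose and 1 fell with FGF15 (1 and 0 without either vehicle array, 4 and 3 without either FGF19 array, and 1 and 1 without FGF15 replicate 2). With FGF19 5 fell (1 without vehicle replicate 1, 2 without FGF19 replicate 1 and 2 without the other vehicle array). Periportal markers summed to 37718 to 38237, 32518 to 34548 and 29275 to 33722. Of 9, 2 fell with FGF15 (1 without vehicle replicate 2). With FGF19 3 fell (1 without vehicle replicate 1 and 6 without FGF19 replicate 2). A sum of signals follows its brightest members and is not on the scale of a single gene's fold. Whether the zone markers bear on Cyp7a1 was not tested.

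Kupffer cell markers, those of the resident macrophages, moved with the treatments too. Their summed signal was 6427 to 6525 with vehicle, 3484 to 3608 with FGF15 and 3499 to 3534 with FGF19. Of 11, 10 fell with FGF15 and 9 with FGF19, against the 6.67% and 7.27% of all genes that fell, and Clec4f and C1qc of this list are among the genes most like Cyp7a1. Neutrophil markers summed to 557 to 566, 270 to 291 and 448 to 476. Of 4, 3 fell with FGF15 and 1 fell with FGF19, the latter lost without either vehicle array or FGF19 replicate 1.

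Of 9 stellate cell markers 3 fell with each hormone (1 with FGF19 without either vehicle array). Of 10 markers of sinusoidal endothelium 1 fell with FGF15 and none was called with FGF19, where 3 were lower at an unadjusted p under 0.05. None of 3 cholangiocyte or 6 lymphocyte markers was called by limma, or had an unadjusted p under 0.05, with either hormone. All 7 lymphocyte markers on the array had group means under 32. Whether these shifts bear on Cyp7a1 was not tested.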

How the data were processed

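The deposited values are signal intensities, 1 per probe set and array, which the authors had scaled to one trimmed mean, per the values themselves. Which software summarised the probes is not given in the sources used here. Of 22690 probe sets, 64 were controls, and the platform annotation paired 20380 with 1 gene. Genes were represented by their brightest probe set. The filter cut was the 25th percentile of mean value over all probe sets but controls (a signal of about 14.0). Genes with their brightest probe set under it were left out, which removed 2708 and left 9685. The authors' deposited intensities were turned into log2(signal + 32) and fitted with limma 3.58.1 in R 4.3.3 (lmFit, eBayes with an intensity trend) over all 6 arrays. Every adjusted p is from limma, two-sided, Benjamini-Hochberg over all genes tested. Residual and prior degrees of freedom were 3 and 6.83, and the median standard error of a difference was 0.13. The fit was tested on simulated data.

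Cyp7a1, the lists and the tests were chosen with earlier results of these data known. Named were Cyp7a1, the 10 genes most like and 5 most opposite to it, up to 4 members per pathway list with the smallest p, 9 genes by name, the 3 called P450 genes that fell and the 3 that rose most, and the 3 neighbours each side. Acox2 and Moxd1 were named after their values were seen. The lists were bile acid enzymes, receptors and kinases, regulators, transporters, cholesterol supply, circadian clock, P450 genes and markers of cell types. Alternatives were other offsets, normalizations, filters, probe set rules, variance priors, array weights, the replicate number as a block, and each array left out. The fit with no offset was added after seeing the data. Deviations of same-numbered arrays from their group means correlated at 0.08, -0.02 and 0.05. The labels do not say whether same-numbered arrays belong together, and pairing beyond these correlations was not tested. Figures were drawn with matplotlib 3.10.9.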

Additional observations from a re-analysis of the deposited data

Results flagged for a closer look

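The 18S ribosomal RNA control probe sets, which no comparison used, had a mean signal of 29.3 on the array of FGF19 replicate 1, above the 12.6 and 11.7 of the vehicle arrays. Cyp7a1 on that array had a signal of 38.2 on 1438743_at, and 32.1 on FGF19 replicate 2. Without that array Cyp7a1 was called in all 3 comparisons, at -0.93 between the hormones, while the Ppargc1a call with FGF19 was lost (adjusted p = 0.079) and Nr5a2 was called with FGF19 (adjusted p = 0.0352). The number of genes called was then 768 with FGF19 and 234 between the hormones.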

How the results depend on the processing

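Cyp7a1 kept its direction and its call in each comparison under all 21 alternatives. Several of these, such as those on the trend, filter and block, can alter its p but not its change. With the replicate number as a block, its changes stayed at -4.44, -5.31 and -0.87. They could not move, since each group holds an array of each number. With the block 1246, 1380 and 450 genes were called, and it ended no Cyp7a1 call. The probe set 1422100_at lost its call between the hormones with only the arrays compared (-0.64). Counts of called genes, 1218 with FGF15, 1313 with FGF19 and 416 between them, were 635, 731 and 163 without an intensity trend. Without 1 array they ranged over 538 to 1199, 599 to 1359 and 234 to 341, lowest without vehicle replicate 1 for the first pair and without FGF19 replicate 1 for the last. Without vehicle replicate 2 they were 606 and 654, without FGF15 replicate 2 722 with FGF15, and without FGF19 replicate 1 768 with FGF19. Centring each array on its median moved the median of all genes from -0.05 to 0.07 and from -0.07 to 0.07, and the share of called genes that were higher from 47.0% to 73.9% with FGF15 and from 46.4% to 78.7% with FGF19. Without a trend that share rose from 56.0% to 67.5% between the hormones.

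Signs turned for genes with small changes. With FGF15, Abca1 was -0.082 with probe sets averaged and -0.016 with quantile normalization, and without 1 array it lay between -0.032 and 0.058, below 0 without FGF15 replicate 1 or vehicle replicate 2 (-0.014). Nr5a2 was 0.10 with centring, and without 1 array between -0.098 and 0.070, above 0 without FGF15 replicate 2 or vehicle replicate 2 (0.019). Bhlhe40 without 1 array lay between -0.0016 and 0.24. Centring gave 0.014 for Cyp27a1 and 0.021 for Dbp with FGF15, and 0.043 for Cyp27a1 with FGF19. With FGF19, Hnf4a was -0.065 with probe sets averaged and -0.019 with quantile normalization, and without 1 array between -0.023 and 0.074. Sdcbp was -0.0062 with probe sets averaged, and Ubxn2b without 1 array lay between -0.020 and 0.10, at -0.00016 without FGF19 replicate 1. The causes were not tested. Of 92 calls of the 51 other named genes, 65 held under every alternative. With 2 arrays per group, precision is limited, and signals near 32 carry the least information.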

Other observations

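Of 15 measured genes of the circadian clock and its output, 1 rose and 1 fell with FGF15, and 3 rose and 3 fell with FGF19. Called were 13.3% of the list with FGF15, about the 12.6% of all genes, and 40.0% with FGF19, against 13.6% of all genes. Rora, a nuclear receptor of the clock, rose by 0.35 with FGF15 (limma adjusted p = 0.0201) and by 1.23 with FGF19 (limma adjusted p = 9.48e-06). The call with FGF15 was lost without either vehicle array or FGF15 replicate 2 (adjusted p of 0.089 to 0.115). Bhlhe40, a clock repressor, changed by 0.12 with FGF15 without a call and rose by 0.44 with FGF19 (limma adjusted p = 0.00917). That call was lost without FGF19 replicate 1 (adjusted p = 0.0575), without vehicle replicate 2 (adjusted p = 0.0703) and with no trend (adjusted p = 0.0635). No circadian gene rose with FGF15 without vehicle replicate 1 or FGF15 replicate 2, and none fell without any one of the vehicle or FGF15 arrays. With FGF19, 1 fell without either vehicle array and with each array centred on its median.

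Of the genes most like Cyp7a1, Ugt2b38, a glucuronosyltransferase, fell by 1.46 with FGF15 and by 1.67 with FGF19, and Aadat, an aminotransferase, by 0.79 and 0.94. Gm6958 fell by 1.40 and 1.73 and C86187 by 0.99 and 1.19. The other probe set of Gm6958 changed by -0.79 and -0.89, and that of C86187 by 0.08 and 0.12 at a mean signal of 7.52. Among the opposite genes, Steap4, a metalloreductase, rose by 1.01 and 1.22, Fitm1 by 0.92 and 1.16, and Rdh16, a retinol dehydrogenase, by 1.03 and 1.25.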
